A study of Caenorhabditis elegans with 6 samples.

Results

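The transthyretin-related (ttr) genes of the nematode Caenorhabditis elegans were followed in wild-type animals raised with and without sodium perchlorate. Members were all probe sets on the array whose single gene symbol was ttr followed by a number, which gave 58 genes of 25478 with a probe set of their own, each measured by 1 probe set. The RefSeq gene table lists 59 such symbols, and the remaining one, ttr-41, was not analysed here. Per the labels, the 6 samples were staged L4 hermaphrodites of strain N2, the standard laboratory wild type, kept at 20 °C for 48 hours from the L1 stage. In the perchlorate group (n = 3 arrays) 1 mg/mL sodium perchlorate was added to the agar and to the bacterial food, Escherichia coli OP50. The control group (n = 3 arrays) was raised on standard growth medium, per the titles and treatment labels, although the growth and treatment notes attached to those samples describe the perchlorate medium. Total RNA of whole animals was measured as log2 probe set values, so fewer cells of a type and less RNA per cell cannot be told apart.

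In vertebrates transthyretin is a secreted carrier of thyroid hormone and of retinol-binding protein, and perchlorate is known there for blocking iodide uptake by the thyroid. Nematodes hold a much expanded family of small secreted proteins with a transthyretin-like fold, and the role of most of them in C. elegans is unknown. Of the members with a described role, TTR-52 links phosphatidylserine exposed on dying cells to the engulfment receptor CED-1, and TTR-33 protects dopaminergic neurons from oxidative damage. A separate, older branch of relatives comprises enzymes of purine breakdown, the 5-hydroxyisourate hydrolases.

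Overall levels were similar on the 6 arrays, with medians over the 26192 tested probe sets between 5.81 and 5.89 in the perchlorate group and between 5.83 and 5.87 in the control group. Pairs of arrays correlated at 0.984 to 0.987 among perchlorate arrays, at 0.991 to 0.993 among control arrays, and at 0.979 to 0.988 across groups. Sperm markers, which an L4 hermaphrodite makes, had mean levels from 5.82 to 10.87 with perchlorate and from 5.67 to 10.83 in controls (5 measured genes). All 4 male markers had mean levels below the median of tested probe sets, the highest at 5.38 with perchlorate and 5.49 in controls. Oocyte and yolk markers, which are typical of adults, were at 9.40 to 12.80 with perchlorate and at 9.37 to 12.84 in controls (7 measured genes). All 7 lay above the upper quartile of tested probe sets (8.13) in both groups. The L4 stage is that of the sample titles and was not tested here. Nothing in the labels ties replicates to separate cultures, so the spread behind the p-values may be technical.

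More ttr genes lay above the control level with perchlorate than below it. The log2 difference, perchlorate minus control, was above 0 for 44 of 58 members and below 0 for 14, beside 55.2% of all tested probe sets above 0. The median difference over the members was 0.16, beside 0.03 over all tested probe sets, and single differences ran from -0.52 to 1.15. No member passed a limma adjusted p under 0.05 over all tested probe sets, of which 0.00764% passed, and the smallest limma adjusted p of a member was 0.122. Taking an unadjusted limma p under 0.05 as a count only, 16 members were higher (27.6%), 2 were lower (3.45%) and 40 did not pass, beside 8.46% of all tested probe sets higher and 7.92% lower. In 22 members (37.9%) every perchlorate value lay above every control value, and in 3 (5.17%) below, beside 12.8% and 11.2% of all tested probe sets.

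The count of higher members moved with the arrays used. It was 12 (20.7%) without perchlorate replicate 1, beside 7.03% of all probe sets then. It was 10 (17.2%) without control replicate 1, beside 5.08%, and 7 (12.1%) without control replicate 2, beside 5.77%. It was 21 (36.2%) without control replicate 3, beside 7.64%. The count of lower members was 2 (3.45%) to 4 (6.90%) over the 6 fits with 1 array left out, beside 5.34% to 8.33% of all probe sets. It reached 4 without perchlorate replicate 3, beside 8.33%.

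Probe sets of the family were mostly bright, which bears on how small a difference they can show. The mean over the 6 arrays lay above the median of tested probe sets (5.83) for 50 members and above the upper quartile (8.13) for 32. Among the 50, 16 were higher (32%) and 2 lower (4%) at an unadjusted limma p under 0.05, beside 10.1% and 11.5% of all probe sets that bright. Groups did not overlap for 22 of the 50 on the higher side (44%) and 3 on the lower (6%), beside 16.6% and 17%. Among the 32, 9 were higher (28.1%) and 1 lower, beside 10.6% and 10.7% of all probe sets above the upper quartile. Of the 8 members below the median brightness 0 had an unadjusted limma p under 0.05, beside 8.46% of all tested probe sets higher and 7.92% lower. So few members cannot show whether dim members differ from bright ones, and the share over dim probe sets was not counted. Of these 8 members 5 lay below the lower quartile (4.02), where a probe set may report little above background and the differences are uncertain. The 5 brightest probe sets belonged to ttr-45, ttr-16, ttr-2, ttr-15 and ttr-24, with differences of 0.04, -0.05, 0.25, 0.26 and 0.01. The 3 dimmest belonged to ttr-19, ttr-57 and ttr-52.

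**Figure D1:**
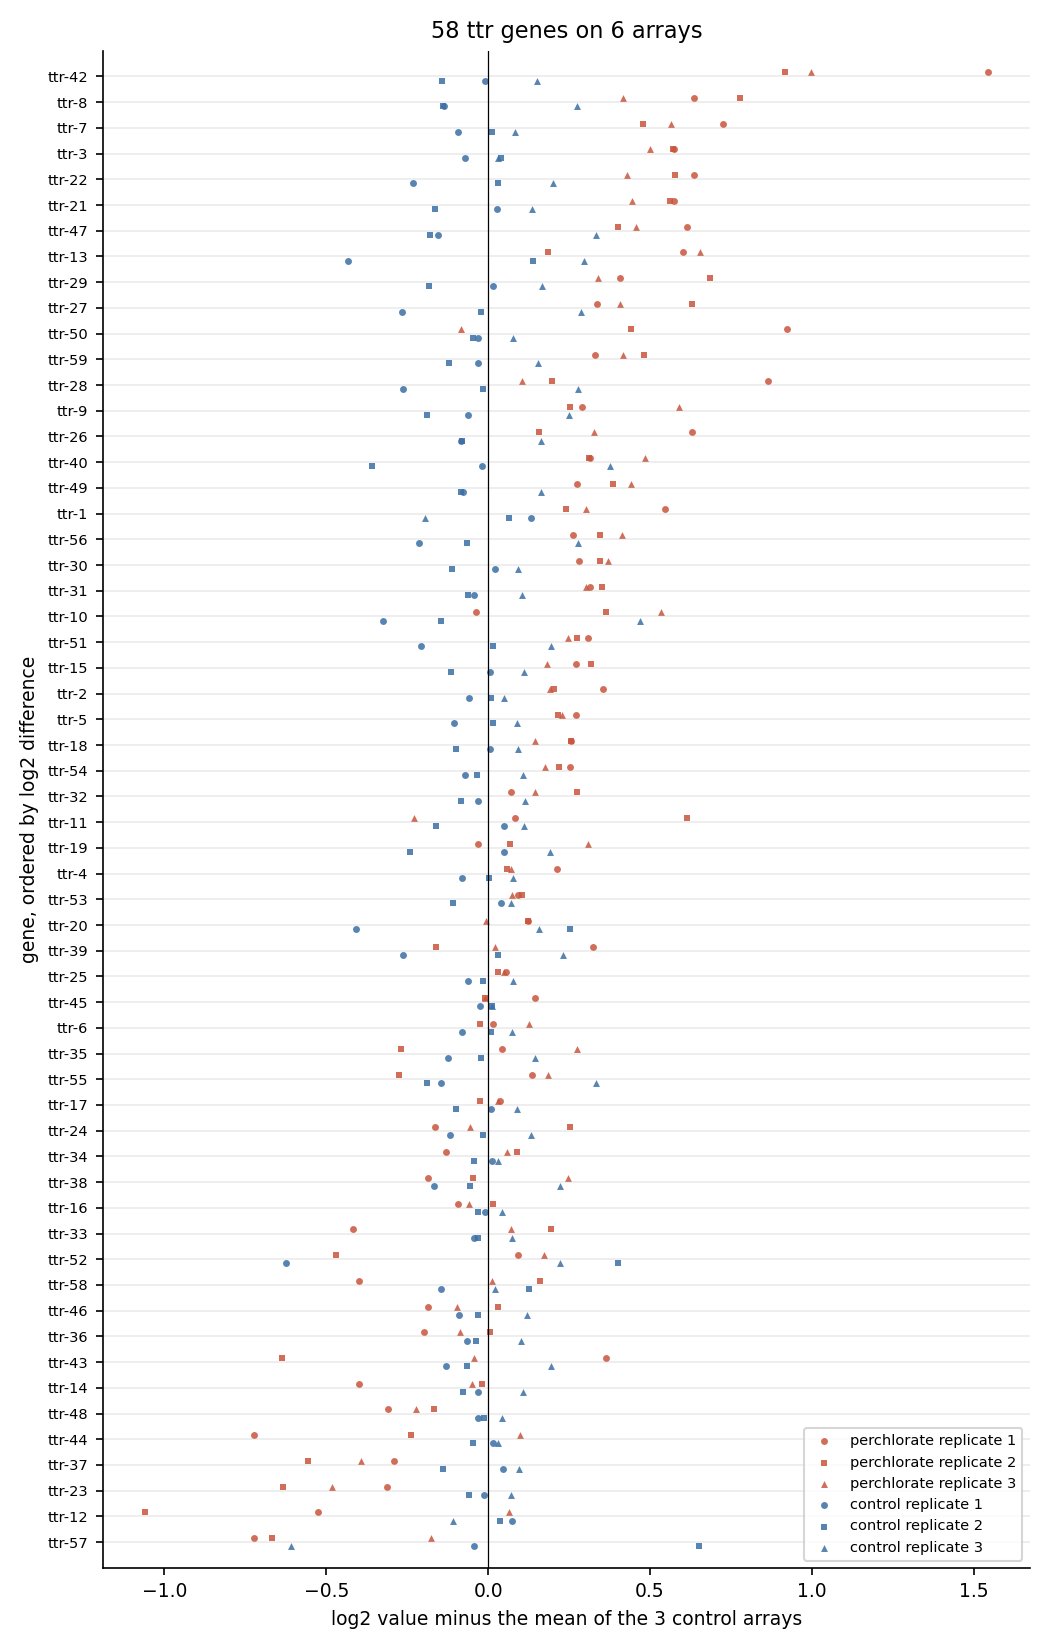
Log2 value of each of the 58 ttr genes on each array minus the mean of its 3 control arrays (x axis), with genes ordered by their log2 difference (y axis). Red symbols are the 3 perchlorate arrays and blue symbols the 3 control arrays, with 1 marker shape per replicate number. For 22 genes all red symbols lie to the right of all blue ones, and for 3 genes they lie to the left.

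The largest difference in the family was in ttr-42 (H01M10.3, chromosome X), whose role is not known. Its log2 levels were 10.547, 9.922 and 10.001 with perchlorate, against 8.996, 8.861 and 9.157 in controls. All perchlorate values were above all control values, and perchlorate replicate 1 was the highest. The log2 difference was 1.15 (SE 0.188), a level 2.22 times that of controls, with a limma adjusted p of 0.122. It was the 1 member at least 2-fold apart. The difference lay between 0.96 and 1.27 on leaving out any 1 array, with limma adjusted p between 0.135 and 0.417. In the RefSeq table ttr-42 overlaps the protein-coding gene H01M10.1, whose own probe set differed by -0.03 (SE 0.136), and the gene on the other side, F52H2.1, differed by 0.38 (SE 0.174, limma adjusted p = 0.336).

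After ttr-42 came 5 genes with differences between 0.53 and 0.61. For ttr-8 (R13A5.6, chromosome III) the levels were 10.06, 10.20 and 9.84 with perchlorate, against 9.29, 9.29 and 9.70 in controls. For ttr-7 (T19C3.9, chromosome III) they were 11.04, 10.79 and 10.88 with perchlorate, against 10.22, 10.32 and 10.39 in controls. Neither gene had overlapping groups, and control replicate 3 was the control nearest to the perchlorate values in both. The differences were 0.61 in ttr-8 (SE 0.162, limma adjusted p = 0.166) and 0.59 in ttr-7 (SE 0.118, limma adjusted p = 0.142).

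The arrays of ttr-3 (K03H1.3, chromosome III) lay closest together within each group among these genes. Its levels were 9.001, 8.996 and 8.926 with perchlorate, against 8.356, 8.465 and 8.458 in controls. The difference of 0.55 (SE 0.103, limma adjusted p = 0.140) was 1.46 times the control level, and it lay between 0.51 and 0.57 on leaving out any 1 array. For ttr-22 (T04H1.3, chromosome V) the levels were 7.75, 7.69 and 7.54 with perchlorate, against 6.88, 7.14 and 7.31 in controls, a difference of 0.55 (SE 0.144, limma adjusted p = 0.163). For ttr-21 (F09F3.6, chromosome V) they were 8.26, 8.25 and 8.14 with perchlorate, against 7.72, 7.53 and 7.83 in controls, a difference of 0.53 (SE 0.122, limma adjusted p = 0.151). In all 3 genes every perchlorate value was above every control value.

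Smaller differences of the same sign were found in ttr-47 and ttr-31, which have no other ttr gene near them. The levels of ttr-47 (H14N18.3, chromosome V) were 9.59, 9.38 and 9.43 with perchlorate, against 8.82, 8.80 and 9.31 in controls, so that control replicate 3 lay close under the perchlorate arrays. The difference was 0.49 (SE 0.166, limma adjusted p = 0.224). The levels of ttr-31 (F58A3.5, chromosome X) were 10.37, 10.40 and 10.35 with perchlorate, against 10.01, 9.99 and 10.15 in controls, a difference of 0.32 (SE 0.106, limma adjusted p = 0.216). The groups did not overlap in either gene. In ttr-9 (C33A12.15, chromosome IV) the levels were 8.13, 8.10 and 8.43 with perchlorate, against 7.78, 7.66 and 8.09 in controls, so that the lowest perchlorate value and control replicate 3 nearly touched. Its difference was 0.38 (SE 0.160, limma adjusted p = 0.304).

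**Figure D2:**
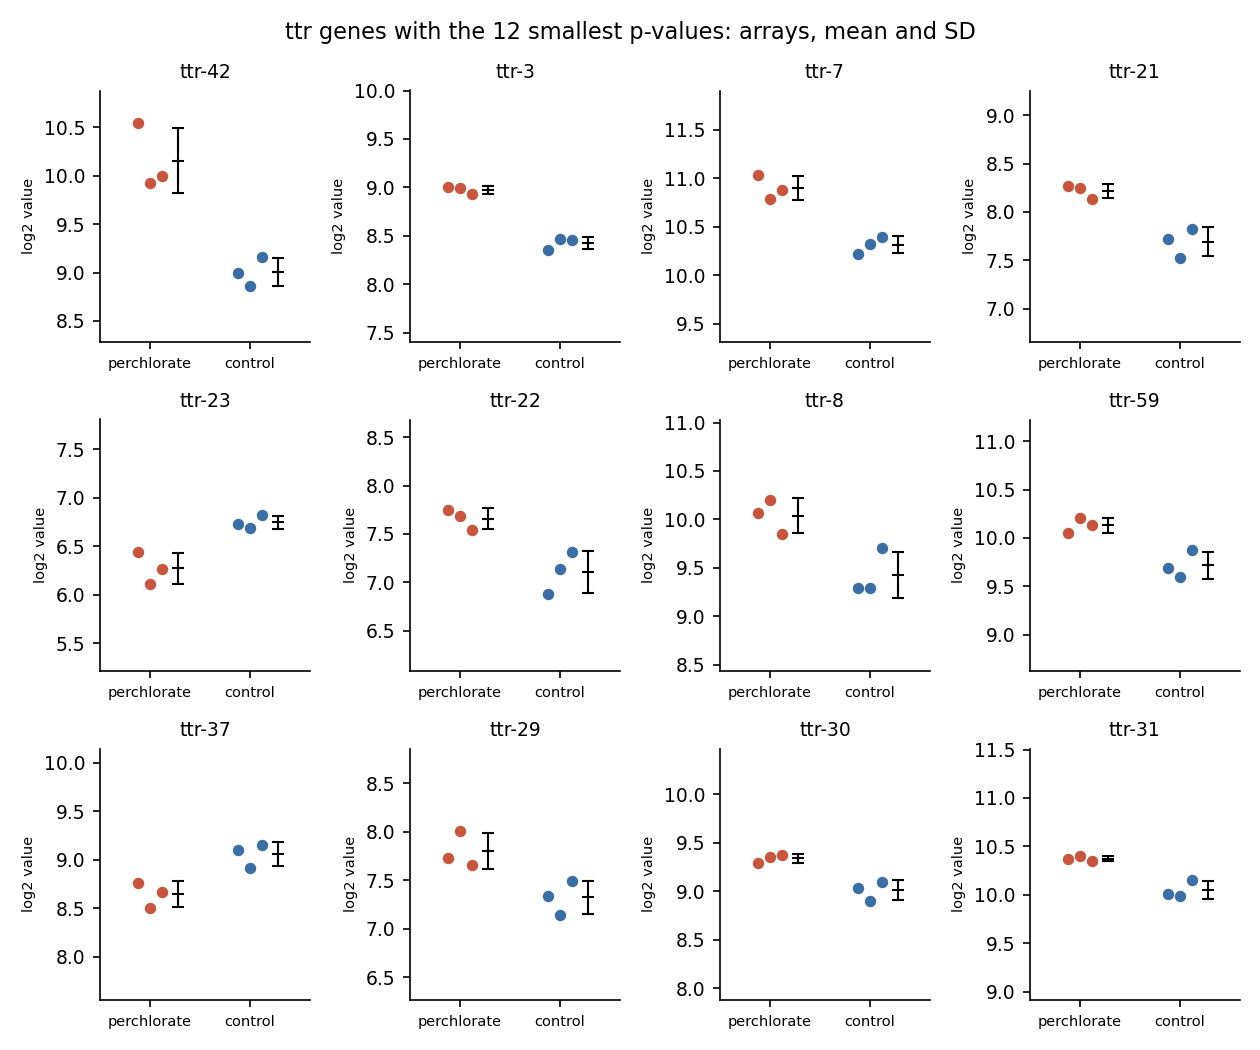
Log2 values (y axis, spanning the same range in each panel) of the ttr genes with the 12 smallest p-values, on the 3 perchlorate arrays (red, left) and the 3 control arrays (blue, right), with the mean and SD beside each group. In each panel the groups do not overlap; perchlorate is above control in 10 genes and below it in ttr-23 and ttr-37.

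Members below the control level were fewer. The levels of ttr-23 (T21C9.8, chromosome V) were 6.44, 6.11 and 6.26 with perchlorate, against 6.73, 6.69 and 6.82 in controls, and its difference was -0.48 (SE 0.123, limma adjusted p = 0.162). The levels of ttr-37 (F21E9.3, chromosome X) were 8.76, 8.50 and 8.66 with perchlorate, against 9.10, 8.92 and 9.15 in controls, and its difference was -0.41 (SE 0.126, limma adjusted p = 0.193). All perchlorate values of both genes lay below all control values, as they also did in ttr-48 (ZC64.2, chromosome X), where the difference was -0.23 (SE 0.104, limma adjusted p = 0.324). The 2 most negative differences came with overlapping groups. In ttr-57 (F46B3.18, chromosome V), a dim probe set, the levels were 2.90, 2.96 and 3.45 with perchlorate, against 3.58, 4.28 and 3.02 in controls (-0.52, SE 0.318). In its neighbour ttr-12 (F46B3.4) they were 6.580, 6.046 and 7.168 with perchlorate, against 7.178, 7.142 and 6.996 in controls (-0.51, SE 0.265), so that perchlorate replicate 3 alone lay among the controls. The difference of ttr-12 was -0.79 without that array (limma adjusted p = 0.168).

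Many ttr genes stand side by side in the genome. In the order of protein-coding genes in the RefSeq table of assembly WBcel235, with the pseudogene ttr-4 kept in place, 30 of the 58 members fell into 12 runs of 2 to 4 genes with at most 3 other genes between neighbours. In 8 runs every member lay above 0, in 0 runs every member lay below 0, and 4 runs held both signs. Of the 30 genes in runs 25 lay above 0, and of the 28 others 19 did. These runs were laid out after the values of their members had been seen. Near-identical neighbours can bind the same probes, and the sequences of the neighbours were not compared here.

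The run of ttr-59 and ttr-30 (T08A9, chromosome X) had both members past an unadjusted limma p of 0.05. The levels of ttr-59 were 10.05, 10.20 and 10.14 with perchlorate, against 9.69, 9.60 and 9.87 in controls, a difference of 0.41 (SE 0.120, limma adjusted p = 0.187). Those of ttr-30 were 9.29, 9.35 and 9.38 with perchlorate, against 9.03, 8.90 and 9.10 in controls, a difference of 0.33 (SE 0.110, limma adjusted p = 0.216). Control replicate 3 was the highest control in both. The run of ttr-27, ttr-28 and ttr-29 (R90, chromosome V) had differences of 0.46 (SE 0.168), 0.39 (SE 0.235) and 0.48 (SE 0.147). In ttr-27 the levels were 9.56, 9.85 and 9.63 with perchlorate, against 8.96, 9.20 and 9.51 in controls, and in ttr-29 they were 7.73, 8.01 and 7.66 with perchlorate, against 7.34, 7.14 and 7.49 in controls. Neither of these genes had overlapping groups, whereas ttr-28 did: its levels were 7.34, 6.68 and 6.58 with perchlorate, against 6.21, 6.46 and 6.76 in controls.

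In the run of ttr-1 to ttr-4 on chromosome III all differences were above 0, and they fanned out from 0.11 to 0.55. Beside ttr-3, ttr-1 (K03H1.6) had levels of 7.19, 6.88 and 6.94 with perchlorate, against 6.77, 6.71 and 6.45 in controls, a difference of 0.36 (SE 0.141, limma adjusted p = 0.272). It was a member in which control replicate 3 was the lowest control. The levels of ttr-2 (K03H1.4) were 11.80, 11.65 and 11.64 with perchlorate, against 11.39, 11.46 and 11.49 in controls, a difference of 0.25 (SE 0.108, limma adjusted p = 0.314). The probe set of ttr-4 (F40F12.1), which RefSeq lists as a pseudogene and which overlaps the gene cbp-3, was nevertheless bright, at 11.20, 11.04 and 11.06 with perchlorate and 10.91, 10.99 and 11.06 in controls. Its difference was 0.11 (SE 0.110).

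Members of other runs differed in size or sign. In ttr-49 (E02C12.13, chromosome V) the levels were 8.05, 8.16 and 8.22 with perchlorate, against 7.70, 7.69 and 7.94 in controls, with a difference of 0.37 (SE 0.121), and its neighbour ttr-40 differed by the same 0.37 with a wider SE of 0.192 and overlapping groups. In the run of ttr-24, ttr-25 and ttr-26 (Y51A2D, chromosome V) the differences were 0.01 (SE 0.146), 0.04 (SE 0.103) and 0.37 (SE 0.155). The levels of ttr-26 were 8.52, 8.05 and 8.22 with perchlorate, against 7.81, 7.81 and 8.06 in controls, so that perchlorate replicate 2 lay just below control replicate 3. The neighbour of ttr-8, ttr-32, differed by 0.16 (SE 0.116). In the run of ttr-11, ttr-57 and ttr-12 the first lay above 0 and the other two below. The pairs ttr-16 with ttr-17 and ttr-35 with ttr-36 lay between -0.09 and 0.02.

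**Figure D3:**
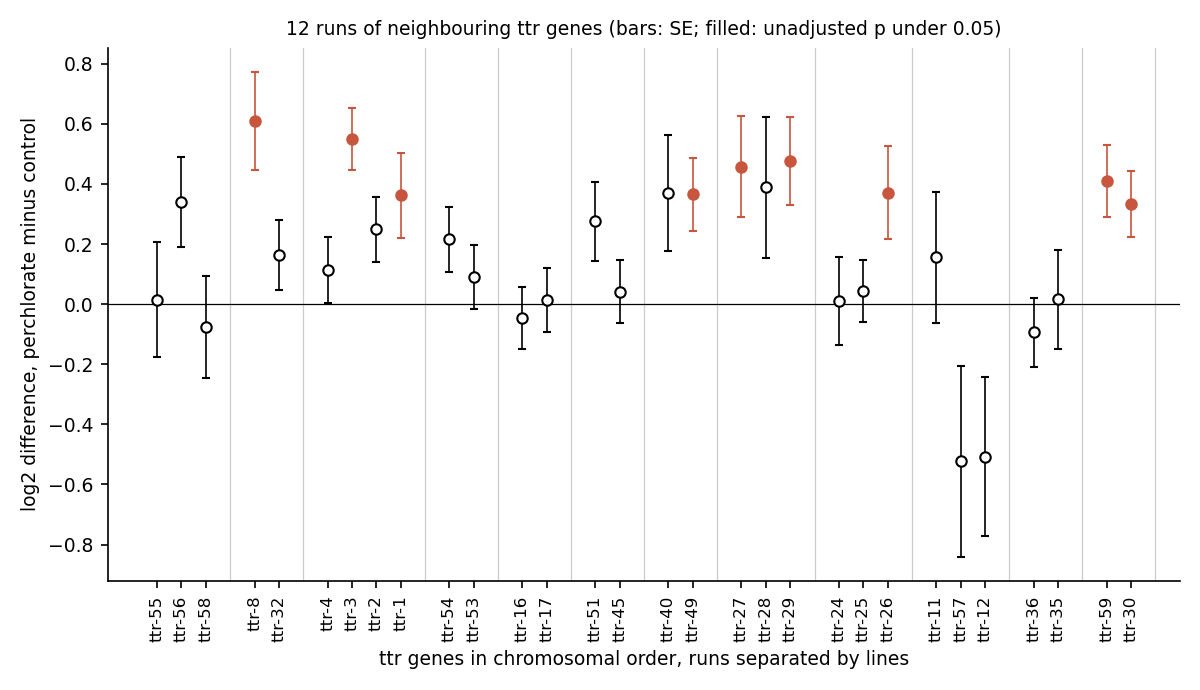
Log2 difference, perchlorate minus control, with its SE (y axis) for the 30 ttr genes that stand in 12 runs of neighbours, in chromosomal order (x axis). Filled red points have an unadjusted limma p under 0.05. The runs of ttr-27 to ttr-29 and of ttr-59 with ttr-30 lie between 0.33 and 0.48, while the run of ttr-11, ttr-57 and ttr-12 spans 0.16 to -0.52.

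By chromosome, the RefSeq table places 3 members on chromosome I, 1 on II, 10 on III, 10 on IV, 22 on V and 12 on X. The share above 0 was 9 of 10 on chromosome III and 9 of 10 on IV, 15 of 22 on V and 8 of 12 on X. Median differences were 0.25 on III, 0.09 on IV, 0.22 on V and 0.01 on X. Both members lower at an unadjusted limma p under 0.05 lay on V and X, and the 16 higher ones were spread over III (4), IV (1), V (7) and X (4). Differences between chromosomes were not tested, and the same shares over all probe sets of each chromosome were not counted. According to RefSeq, 18 members overlap another protein-coding gene, and signals of overlapping genes may not be separable. Among the 16 higher members these are ttr-42, ttr-8, ttr-7 and ttr-47, and ttr-33 overlaps such genes as well.

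The member with the best known role, ttr-52, had a dim probe set, with a mean below the lower quartile. Its levels were 3.79, 3.23 and 3.87 with perchlorate, against 3.08, 4.10 and 3.92 in controls. The groups overlapped, and the difference of -0.07 (SE 0.298) changed sign on leaving out some single arrays, so a change in ttr-52 was not detectable with these arrays. Of 20 genes of phosphatidylserine exposure and engulfment that were listed for comparison, 1 was higher, 4 lower and 15 not past an unadjusted limma p of 0.05, and 0 had a limma adjusted p under 0.05. Of all tested probe sets 8.46% were higher and 7.92% lower at that unadjusted p. The median difference of the engulfment genes was -0.07, beside 0.03 over all tested probe sets. The receptor gene ced-1 was at 7.78, 7.68 and 7.63 with perchlorate, against 7.98, 8.04 and 7.95 in controls, and its groups did not overlap. Its difference was -0.29 (SE 0.105, limma adjusted p = 0.246). The largest negative differences were -0.49 (SE 0.123) in dyn-1, the dynamin gene needed for phagosome formation, and -0.39 (SE 0.126) in the integrin alpha gene pat-2. The aminophospholipid translocase gene tat-1, which keeps phosphatidylserine on the inner leaflet, differed by -0.36 (SE 0.106). The gene higher at an unadjusted limma p under 0.05 was ced-8, a dim probe set, with a difference of 0.38 (SE 0.128). The phosphatidylserine receptor gene psr-1 differed by 0.19 (SE 0.137), with overlapping groups. The death pathway genes egl-1, ced-9, ced-4 and ced-3 differed by 0.20, -0.04, 0.26 and -0.19, and 0 of the 4 had an unadjusted limma p under 0.05.

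The levels of ttr-33 (C37C3.13, chromosome V), the gene protective of dopaminergic neurons, were 9.38, 9.99 and 9.87 with perchlorate, against 9.76, 9.77 and 9.87 in controls. Perchlorate replicate 1 was the lowest array and perchlorate replicate 2 the highest, so the groups overlapped. The difference was -0.05 (SE 0.173, limma adjusted p = 0.907), and 0.13 without perchlorate replicate 1. Among 7 dopaminergic markers 0 had an unadjusted limma p under 0.05 in either direction. The tyrosine hydroxylase gene cat-2 differed by 0.11 (SE 0.168) and the dopamine transporter gene dat-1 by -0.35 (SE 0.197). The probe set of dat-1 was dim, with a mean level below the lower quartile. The 5-hydroxyisourate hydrolase genes R09H10.3 and ZK697.8 differed by 0.16 (SE 0.121) and 0.40 (SE 0.278), both with overlapping groups. For ttr-11 (F46B3.3) the levels were 5.98, 6.52 and 5.67 with perchlorate, against 5.95, 5.74 and 6.01 in controls, a difference of 0.16 (SE 0.218).

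Values of the family also differed from array to array within the control group. With each member set against its own control mean, the median over the 58 genes was 0.23, 0.20 and 0.17 on perchlorate replicates 1, 2 and 3, against -0.06, -0.04 and 0.11 on control replicates 1, 2 and 3. By this median control replicate 3 lay between the other controls and the perchlorate arrays. On it 55 of 58 members were above their control mean (94.8%), beside 49.5% of all tested probe sets. On control replicates 1 and 2 this held for 14 and 17 members. On perchlorate replicates 1, 2 and 3 it held for 41 (70.7%), 42 (72.4%) and 44 (75.9%). The shares of all tested probe sets on these arrays were 55.5%, 51.8% and 52.4%. By this count control replicate 3 lay above every perchlorate array. Members moved together on control replicate 3, so they cannot be counted as independent of each other. Without control replicate 3 the median difference of the family was 0.22, beside 0.16 with all arrays.

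Markers of moulting and of the epidermis went the other way on the same arrays. The 14 listed moulting genes, which include mlt-10, noah-1 and lin-42, had median deviations of -1.79, -0.90 and -0.72 on perchlorate replicates 1 to 3, against 0.08, 0.10 and -0.20 on control replicates 1 to 3. All 14 lay below 0, and 11 of them were lower at an unadjusted limma p under 0.05, beside 7.92% of all tested probe sets. The 10 epidermis markers, some of which are also in the moulting list, had medians of -0.61, -0.56 and -0.50 with perchlorate, against 0.07, 0.11 and -0.21 in controls, and all 10 lay below 0. Control replicate 3 was the lowest control for both lists and the highest for the ttr genes. Intestine markers lay below 0 in 8 of 9 genes (median -0.22), body wall muscle markers in 5 of 6 (median -0.32) and neuronal markers in 6 of 8 (median -0.11). Of all 26192 tested probe sets 11728 lay below 0. Lower at an unadjusted limma p under 0.05 were 5 of 10 epidermis, 3 of 9 intestine and 4 of 6 body wall muscle markers. Among the 8 neuronal markers 0 were lower and 1 was higher at that p. Coelomocyte markers were at 0.11 and 0.12, pharynx markers had a median of -0.12 over 6 genes, and vulva markers one of -0.38 over 5. At that unadjusted limma p 2 of the 6 pharynx markers were lower and 1 was higher, and 1 of the 5 vulva markers was lower. The 7 oocyte and yolk markers had a median of -0.01, with 1 higher and 0 lower. Of all tested probe sets 8.46% were higher and 7.92% lower at that p. Sperm markers lay above 0 in 4 of 5 genes (median 0.12), with median deviations of 0.14, 0.06 and 0.13 on the perchlorate arrays, against 0.06, 0.00177 and -0.02 on the control arrays. The part of these markers in the ttr differences was not tested.

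**Figure D4:**
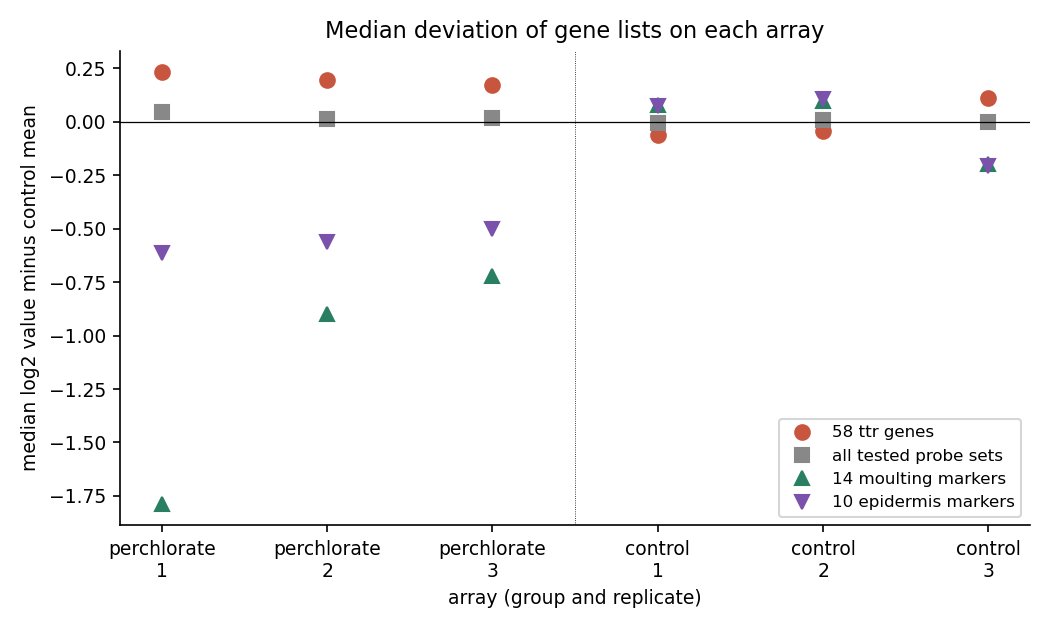
Median over the genes of a list of the log2 value minus the mean of the 3 control arrays (y axis) on each of the 6 arrays (x axis, perchlorate replicates left, control replicates right). The ttr median (circles) is 0.17 to 0.23 on the perchlorate arrays and 0.11 on control replicate 3, while the moulting markers (triangles up) reach -1.79 on perchlorate replicate 1 and all tested probe sets (squares) stay near 0.

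The other members had small differences with 1 or more overlapping values in most cases. Those not past an unadjusted limma p of 0.05 numbered 40, with differences between -0.52 and 0.48. Among them ttr-51, ttr-15, ttr-2, ttr-5, ttr-18 and ttr-54 had every perchlorate value above every control value, at differences between 0.22 and 0.28 and limma adjusted p between 0.314 and 0.371, and ttr-53 did so at 0.09. The levels of ttr-15 (T07C4.5) were 11.51, 11.55 and 11.42 with perchlorate, against 11.24, 11.12 and 11.34 in controls. Those of ttr-5 (C40H1.5) were 10.69, 10.63 and 10.65 with perchlorate, against 10.31, 10.43 and 10.51 in controls. In some members the perchlorate arrays lay on both sides of the controls. The levels of ttr-50 were 6.07, 5.59 and 5.07 with perchlorate, against 5.12, 5.10 and 5.23 in controls, so that replicates 1 and 2 lay above all controls and replicate 3 below. The levels of ttr-44 were 9.80, 10.29 and 10.62 with perchlorate, against 10.54, 10.48 and 10.56 in controls, so that replicates 1 and 2 lay below all controls and replicate 3 above.

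**Figure D5:**
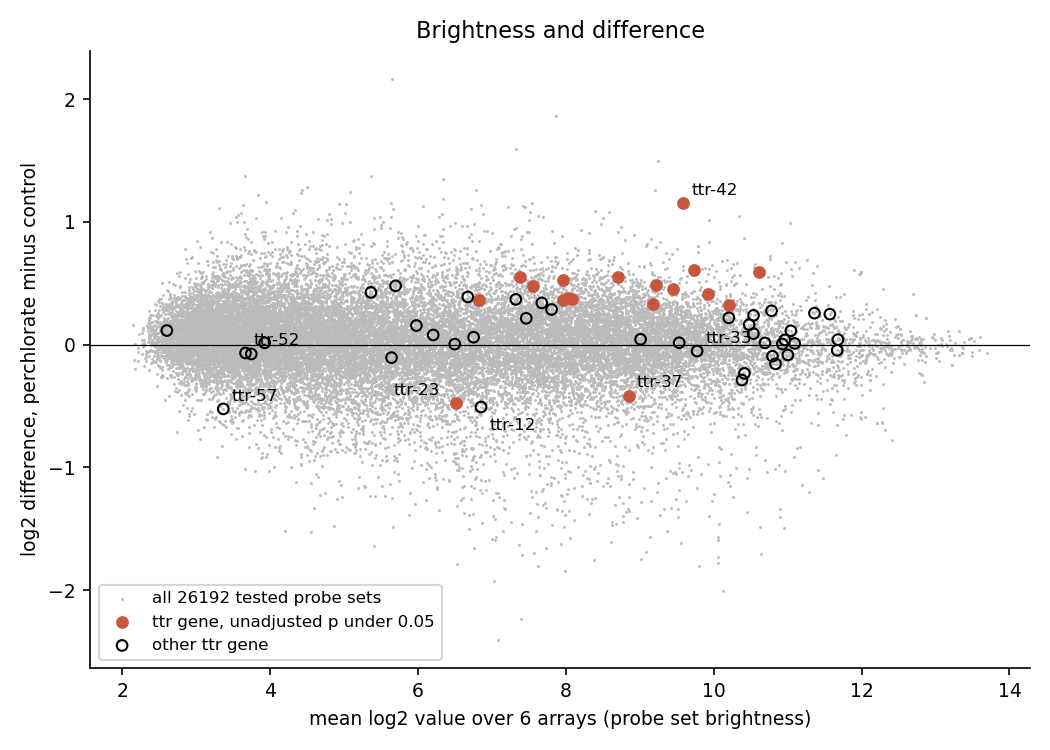
Log2 difference, perchlorate minus control (y axis), against the mean log2 value over the 6 arrays (x axis) for all 26192 tested probe sets (grey) and the 58 ttr genes (large symbols; filled red where the unadjusted limma p was under 0.05). The 16 filled symbols above 0 lie at mean levels above 5.83, and ttr-42 stands highest at 1.15.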

How the data were processed

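RNA of 6 samples was amplified into biotin-labelled cDNA and hybridised to Affymetrix arrays, per the labels' protocols. Per the submitters' processing notes, the authors turned intensities into log2 values of probe sets by RMA (Affymetrix Expression Console). Tool versions and a genome build are not given in the sources used here, and coordinates are left out. RMA fits quantiles over all arrays, which can hide a shift shared by most genes. The table held 29317 probe sets; 25546 had 1 gene symbol in the platform annotation, 646 several and 3125 none, and the 26192 with a symbol were tested without a filter. All 58 members kept their symbol when matched by gene ID to RefSeq (WBcel235).

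Groups came from the sample titles. The 2 groups were compared by limma 3.58.1 in R 4.3.3 (lmFit, eBayes without trend, two-sided, Benjamini-Hochberg over all tested probe sets, threshold 0.05; 4 residual and 3.12 prior degrees of freedom). Precision is limited by the number of arrays; the median SE of a difference was 0.143 for the members and 0.153 for all probe sets. On simulated arrays of 26192 rows, changes of 1 and 2 on the log2 scale were recovered for 78% and 97% of changed rows. That simulation also gave 16 false calls. On the measured arrays 58 tested probe sets were at least 2-fold higher with perchlorate and 255 at least 2-fold lower. Only 2 of all tested probe sets passed, and ttr-42, at 1.15, did not (limma adjusted p = 0.122). The simulated shares therefore do not show that a member without a call lacks a change of that size. Unadjusted p-values serve only to count genes, to be read against the share of all probe sets.

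The members and lists were chosen with earlier results of these data known. Named were members at an unadjusted p under 0.05 (12 in each direction; the 4 beyond that were added), the 3 largest differences each way, the 5 brightest and 3 dimmest probe sets, ttr-52, ttr-33 and ttr-11, and in the lists the genes at an unadjusted p under 0.05 (3 each way) with ced-1, psr-1, cat-2 and dat-1. The rule's part on protein identity was not applied, as no protein sequences were used here. Further members were named after their values were seen. Alternatives were the replicate block, each array left out, repeated quantile normalisation, median centring, filters on dim probe sets, a trended and robust prior, the mean of a gene's probe sets, and all probe sets. Same-numbered replicates did not deviate together (correlations 0.03, -0.02 and -0.01), so the numbers were not taken as pairs.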

Additional observations from a re-analysis of the deposited data

How the results depend on the processing

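With the replicate block 0 of all probe sets and 0 members passed, and 16 members were higher and 2 lower at an unadjusted limma p under 0.05, beside 7.40% and 7.52% of all probe sets. Higher members at that p numbered 21 (36.2%) after repeated quantile normalisation, beside 8.24%, and 22 (37.9%) with the trended and robust prior, beside 9.25%. They numbered 23 of 50 (46%) in the fit above the median brightness, beside 12.9%, and 19 of 53 (35.8%) above the lower quartile, beside 9.70%. They numbered 16 (27.6%) with centred arrays, beside 8.07%, and 15 (25.9%) with all probe sets, beside 8.28%. Lower members numbered 2 to 3, beside 7.38% to 13.8%. Over all 26192 tested probe sets 2 passed at a limma adjusted p under 0.05. After repeated quantile normalisation 1 passed, with arrays centred on the median 1, and with all 29317 probe sets 1. The count was 97 of 13096 above the median brightness, 328 of 26192 with a trended and robust prior, and 0 without any 1 array. Of the 58 members 0 passed. Above the median brightness 2 of 50 members did (ttr-42 and ttr-3, limma adjusted p = 0.0471 each). With the trended and robust prior 3 of 58 did (limma adjusted p = 0.0266 in ttr-42, 0.0277 in ttr-7 and 0.0359 in ttr-3). The median difference was 0.22 above the median brightness and 0.22 above the lower quartile, where dim members drop out. Leaving out 1 array at a time gave members higher from 7 (12.1%) to 21 (36.2%), beside 5.08% to 9.34% of all probe sets. Members lower ran from 2 (3.45%) to 4 (6.90%), beside 5.34% to 8.33%. Members higher without overlap ran from 22 to 31. Those lower without overlap ran from 3 to 6 (5 without control replicate 1, 6 without perchlorate replicate 2 or 3). Groups of 2 and 3 arrays separate more easily than groups of 3 and 3. The shares of all probe sets without overlap were not counted in these fits. Engulfment genes past an unadjusted p of 0.05 ran from 3 (without control replicate 1, and without perchlorate replicate 3) to 5. The median over the members ran from 0.14 to 0.22. Of the named members, ttr-52, ttr-24, ttr-19, ttr-45, ttr-33 and ttr-11 changed sign on leaving out 1 array. Their differences ran from -0.38 to 0.13 in ttr-52 (0.13, 0.04 and 0.13 without control replicate 2, control replicate 3 and perchlorate replicate 2), from -0.11 to 0.10 in ttr-24 (-0.05 without control replicate 1, -0.11 without perchlorate replicate 2), from -0.00440 (without control replicate 2) to 0.21 in ttr-19, from -0.00950 (without perchlorate replicate 1) to 0.0675 in ttr-45, from -0.17 to 0.13 (without perchlorate replicate 1) in ttr-33, and from -0.0729 (without perchlorate replicate 2) to 0.35 in ttr-11. After repeated quantile normalisation ttr-16 was at 0.0173. The cause was not tested. The mean of a gene's probe sets left the members as they were, since each has 1 probe set.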
